A study of Rattus norvegicus with 45 samples.

Results

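The statin cerivastatin, given to lower cholesterol, was compared at 1.0 and 0.5 mg/kg/day in the gastrocnemius, a calf muscle, of rats that did not run. The comparison used every array whose title names gastrocnemius, one of these doses and no exercise, which gave 3 arrays at 1.0 mg/kg/day, against 4 from rats given 0.5 mg/kg/day, together 7 of the 45 arrays of the study. The animals were female Sprague Dawley rats, dosed for 14 days, and each array held total RNA of gastrocnemius. The study calls the arrays of a group biological replicates and does not say how many animals stand behind each. For reference, 4 arrays came from unexercised rats given the vehicle, 0.5% methylcellulose. The matching step was also measured in rats that ran on a treadmill for 20 min on 5 days a week, with 4 arrays at 1.0 and 3 at 0.5 mg/kg/day. The other gastrocnemius arrays, 4 unexercised and 4 exercised at 0.1 mg/kg/day and 4 exercised with vehicle, entered the estimate of the spread. The labels name no batch, extraction day or scan.

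Statins block the synthesis of mevalonate, the precursor of cholesterol and of the isoprenoid lipids that anchor small GTPases to membranes. A cell short of sterols switches on the genes of the pathway through the SREBP transcription factors. The rat gastrocnemius consists mainly of fast-twitch fibres, and statins at high doses are known to injure such fibres in rats. When muscle fibres die, neutrophils and macrophages enter the tissue, clear the debris and secrete chemokines, and satellite cells and fibroblasts divide to rebuild fibres and matrix.

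Of the 3 arrays at 1.0 mg/kg/day, replicates 1 and 2 resembled each other and replicate 3 differed from both, and this bears on every result below. Values are MAS5 signals, linear intensities scaled by the authors, and were compared as log2(signal + 12.4). Of the 21729 probe sets tested, 14.5%, 17.3% and 1.49% lay at least 1 log2 unit beyond all 4 vehicle arrays in replicates 1, 2 and 3 at 1.0 mg/kg/day, against 2.22%, 1.60%, 1.99% and 1.27% in the 4 replicates at 0.5 mg/kg/day. Replicates 1 and 2 stood far outside the range of vehicle arrays, and replicate 3 did not exceed the arrays of the lower dose in this count. Such a departure was not confined to 1.0 mg/kg/day. At 0.1 mg/kg/day, unexercised, the share was 1.82%, 1.89%, 23.7% and 2.36% in replicates 1 to 4, so replicate 3 of that dose lay furthest out. Across probe sets, Pearson's r was 0.96 between replicates 1 and 2, but 0.86 and 0.84 between replicate 3 and these 2 arrays. Replicate 3 correlated with the 4 arrays at 0.5 mg/kg/day at 0.93 to 0.95, in the range that those arrays had among themselves (0.93 to 0.95), while replicates 1 and 2 correlated with them at 0.79 to 0.85. Whether the label of replicate 3 is right cannot be settled from the files, so it was kept as labelled, and the main counts are also given without it. The ratio of 5′ to 3′ actin signal, a measure of RNA integrity, was 0.42, 0.48 and 0.39 in the arrays at 1.0 mg/kg/day and ran from 0.38 to 0.48 in those at the lower dose. The same ratio for Gapdh was 0.688, 0.795 and 0.836 at 1.0 mg/kg/day, against 0.789 to 0.877 at 0.5 mg/kg/day, and replicate 1 was below that range. In the outlying array at 0.1 mg/kg/day the actin ratio was 0.116. The part of RNA quality in the changes was not tested. The muscle fibre markers Ckm, Acta1, Ttn, Myh4 and Myh1 were present at high signal on all 7 arrays.

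**Figure D1:**
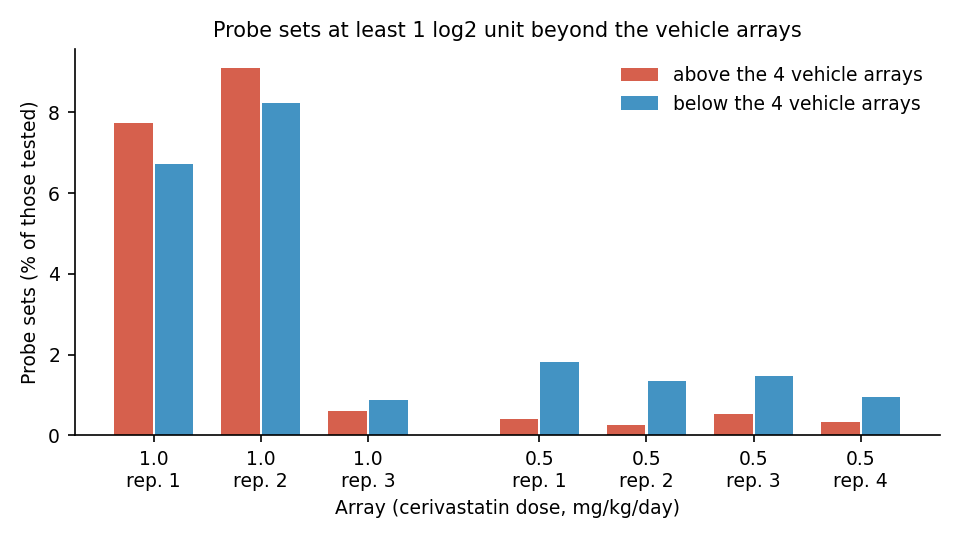
Share of the tested probe sets (y axis, %) that lay at least 1 log2 unit above (red) or below (blue) all 4 vehicle arrays, for each of the 3 arrays at 1.0 mg/kg/day and the 4 at 0.5 mg/kg/day. Both directions together came to 14.5% and 17.3% in replicates 1 and 2 at 1.0 mg/kg/day, and to 1.49% in replicate 3.

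With all 3 arrays at 1.0 mg/kg/day, 2028 of 21729 probe sets (9.33%) differed from 0.5 mg/kg/day at a limma adjusted p under 0.05, and 1240 (5.71%) were higher and 788 (3.63%) lower. One probe set stood for each named gene, and of 11684 genes 908 (7.77%) rose and 409 (3.5%) fell. The median log2 difference over all genes was 0.05. Of the 1317 genes past the threshold, 903 differed by at least 1 log2 unit and 278 by at least 2. In 768 of the 1317 the arrays of the doses did not overlap, 542 higher and 226 lower. Over all genes tested, all 3 arrays at 1.0 mg/kg/day lay above all 4 at 0.5 mg/kg/day in 1409 (12.1%) and below them in 985 (8.43%). A positive log2 difference means higher at 1.0 mg/kg/day, and ± after it is its SE.

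The count of calls depended on single arrays and on which arrays shared the estimate of the spread. Without replicate 3 at 1.0 mg/kg/day it was 5892 probe sets (27.1%), and 2156 genes (18.5%) were higher and 1546 (13.2%) lower. Without replicate 1 no probe set passed, and without replicate 2 only 1 did, a fall in Liat1. This gene, singled out for that reason, had 75.2, 189.5 and 41.9 in replicates 1, 2 and 3 at 1.0 mg/kg/day, against 246, 377, 467 and 332 at 0.5 mg/kg/day. Leaving out 1 of the 4 arrays at 0.5 mg/kg/day gave 610, 1221, 1034 and 1069 probe sets for replicates 1 to 4. The spread was taken from all 30 gastrocnemius arrays, and a fit on the 7 arrays alone passed no probe set (6020 at an unadjusted p under 0.05, lowest adjusted p 0.105). A fit on the 15 unexercised arrays alone also passed none (4767 at an unadjusted p under 0.05).

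In the genes that rose, replicate 3 moved the same way as the other 2 arrays at 1.0 mg/kg/day, but by much less. The median log2 shift from the mean at 0.5 mg/kg/day was 1.97, 2.03 and 0.37 in replicates 1, 2 and 3 for the 908 genes that rose, and -1.39, -1.51 and -0.24 for the 409 that fell. Per gene, replicate 3's shift had a median of 19.7% of the mean of the other 2 among genes that rose and 16.2% among genes that fell. It moved the other way in 66 of the genes that rose and 40 of those that fell. These genes were chosen by a test that includes replicate 3, so the shares describe them and test nothing.

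**Figure D2:**
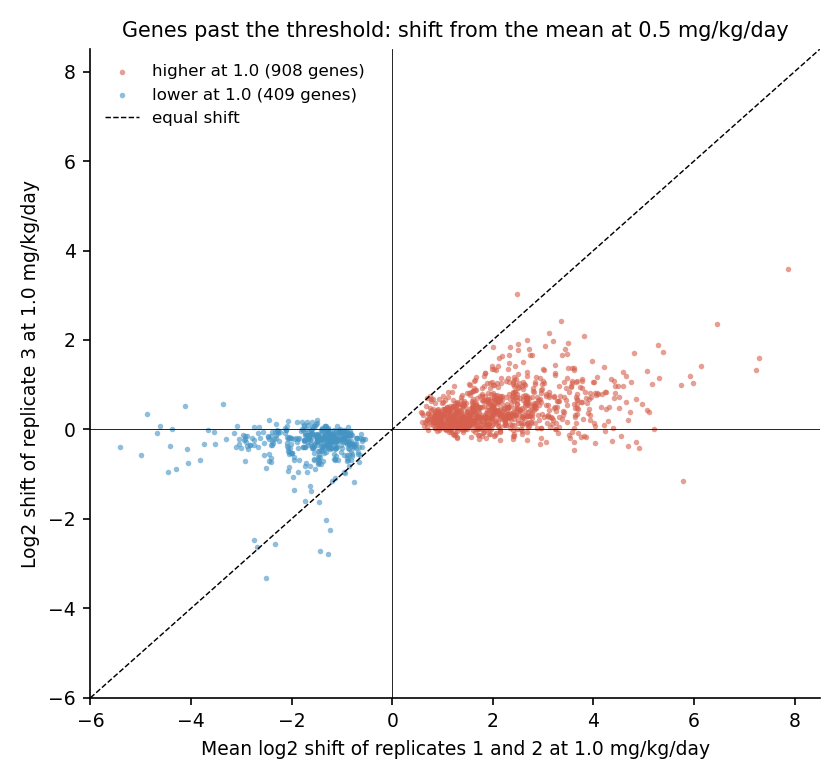
Log2 shift from the mean of the 4 arrays at 0.5 mg/kg/day, for each of the 1317 genes past the threshold: replicate 3 at 1.0 mg/kg/day (y axis) against the mean of replicates 1 and 2 (x axis). Red points are the 908 genes higher and blue points the 409 lower at 1.0 mg/kg/day. The points lie flatter than the dashed line of equal shift, with median shifts in replicate 3 of 0.37 and -0.24.

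Several genes of sterol synthesis rose at 1.0 mg/kg/day, some of them in all 3 arrays. Of 22 tested members of the list, 6 rose and none fell, against 7.77% higher and 3.5% lower over all genes, with a median log2 difference of 0.61 against 0.05. Idi1, the isomerase of isopentenyl diphosphate, had signals of 1705, 1881 and 565 in replicates 1, 2 and 3 at 1.0 mg/kg/day, against 263, 269, 298 and 275 at 0.5 mg/kg/day. All 3 arrays lay above the 4, with replicate 3 nearer to the lower dose than to the other 2 arrays. The log2 difference was 2.10 ± 0.42 (adjusted p = 0.0101). Cyp51, the lanosterol demethylase, had 3034, 3261 and 936 at 1.0 mg/kg/day, against 732, 635, 414 and 603 at 0.5 mg/kg/day (1.83 ± 0.36, adjusted p = 0.00932). Msmo1, a sterol C4-methyl oxidase, had 1918, 2275 and 717, against 366, 406, 431 and 513 (1.75 ± 0.37). Acat2, which condenses acetyl-CoA units, had 752, 881 and 246, against 135, 164, 106 and 144 (1.92 ± 0.41). In each of these 4 genes the arrays of the doses were apart, replicate 3 included. Insig1, a sterol-sensing brake on the pathway, had 4894, 5434 and 664 at 1.0 mg/kg/day, against 609, 575, 705 and 528 at 0.5 mg/kg/day (2.10 ± 0.49, adjusted p = 0.0159). Squalene epoxidase, Sqle, had 668, 994 and 85.4, against 54.3, 43.6, 124 and 144 (2.10 ± 0.67, adjusted p = 0.0481). In both, replicate 3 lay within the range at 0.5 mg/kg/day and the rise came from the other 2 arrays. The median shift of the list was 0.76, 1.06 and 0.22 in replicates 1, 2 and 3, and without replicate 3 the counts were 8 higher and 1 lower, against 18.5% and 13.2% of all genes.

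Promoters are shown for 3 sterol genes that rose and whose window holds the CCAAT box, the site of NF-Y, a factor known to work with SREBP. The sequences are RefSeq's (build GRCr8), 5′ to 3′ on the gene's strand, from the 250 bases before the annotated start, and capitals mark CCAAT or, on the other strand, ATTGG.
Idi1, chr17:66547540-66547605, minus strand: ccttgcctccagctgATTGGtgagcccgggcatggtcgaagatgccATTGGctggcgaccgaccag
Msmo1, chr16:29746925-29747064, plus strand: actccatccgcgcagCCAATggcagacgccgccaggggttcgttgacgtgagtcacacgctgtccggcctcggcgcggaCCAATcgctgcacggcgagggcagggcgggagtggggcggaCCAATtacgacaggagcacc
Insig1, chr4:8057943-8057977, minus strand: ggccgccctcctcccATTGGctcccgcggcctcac

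Of the 22 tested members of the sterol list, 18 had a promoter window in the table, and 14 of these held CCAAT on either strand, against 34.0% of all 33469 windows of the same length. The windows of Cyp51 and Acat2 held none, and Sqle, which also rose, had no window. Members that did not pass, such as Insig2, Mvk and Nsdhl, held CCAAT too, so the box was not confined to genes that rose. The core TCACNCCAC, one form of the sterol regulatory element, was searched on both strands and matched in none of the 18 and in 0.974% of all windows. The E-box CANNTG, which reads the same on both strands, matched in 11 of the 18 and in 65.5% of all. A match says that these letters are in the window, and no match that they are not.

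Small GTPases that carry isoprenoid anchors were measured with the enzymes that attach them, and 7 of 29 rose and none fell (median 0.37). The share higher was 24.1%, against 7.77% of all genes. Rnd1, a GTPase that loosens the actin skeleton, had 1040.3, 1088 and 155 at 1.0 mg/kg/day, against 33.7, 127, 24.2 and 153 at 0.5 mg/kg/day (2.87 ± 0.58, adjusted p = 0.0101). Rhoc had 2440.5, 2318 and 832, against 466, 798, 611 and 635 (1.43 ± 0.33), and the adhesion regulator Rap1b had 6714, 7143 and 2588, against 2029, 2326, 1908 and 2401 (1.21 ± 0.30). In these 3 genes all arrays at 1.0 mg/kg/day lay above those at 0.5 mg/kg/day. Rac2, the Rac form of blood cells, had 1801, 1334 and 293, against 137, 155, 182 and 321 (2.18 ± 0.48), with replicate 3 inside the lower dose's range. Rhob, another small GTPase, had 6321, 8235 and 3787, against 3534, 4088, 4152 and 2559.7, and did not pass (0.72 ± 0.35, adjusted p = 0.172).

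Some fatty acid synthesis genes rose. Of 16 tested, 4 rose (25%, against 7.77% of all genes) and 1 fell (6.25%, against 3.5%). Without replicate 3 the list was mixed, with 5 higher and 4 lower, against 18.5% and 13.2% of all genes. The list's median shift was larger in replicate 3 (0.80) than in replicates 1 and 2 (0.28 and 0.37). The elongases Elovl1 and Elovl5 and the desaturase Fads1 had log2 differences of 1.83 ± 0.45, 1.44 ± 0.45 and 1.65 ± 0.50. Elovl5 had 3539, 3637 and 2463 at 1.0 mg/kg/day, against 984, 1290.3, 1153 and 1219 at 0.5 mg/kg/day, and on the log scale replicate 3 was closer to the other 2 arrays than to the lower dose. Srebf1, which encodes the SREBP form that drives lipid synthesis, fell, with 505, 528 and 1480.1, against 2895, 1845, 1519 and 2518 (-1.52 ± 0.44, adjusted p = 0.0327). Scd, the stearoyl-CoA desaturase that fat cells hold in plenty, had 112, 150.3 and 1750.5, against 101, 307, 304 and 321, and replicate 3 was the highest of the 7. One vehicle array, at 1952.5, was higher still.

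Macrophage genes made the most complete group. Of 33 tested, 32 rose and none fell (median 2.68), against 7.77% of all genes, and Ncf1 alone did not pass (0.13 ± 0.72). The filter on signal used the mean over all 45 arrays, so a gene can be among those tested because the drug raised it. The list's median shift was 3.62, 3.76 and 0.46 in replicates 1, 2 and 3. In replicate 3, 18 of the 33 lay above all 4 arrays at 0.5 mg/kg/day, against 33 and 32 in replicates 1 and 2. Of all genes tested, 22.44% lay above all 4 in replicate 3, and 37.94% and 40.03% in replicates 1 and 2.

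Spp1, which encodes osteopontin, a cytokine and matrix protein of activated macrophages, had the largest rise of the genes past the threshold. Its signals were 22132, 28086 and 1269 at 1.0 mg/kg/day, against 45.5, 121, 165 and 82.3 at 0.5 mg/kg/day. Replicate 3 was more than 1 log2 unit above all 4 arrays of the lower dose, yet far below the other 2, and the log2 difference was 6.44 ± 0.91 (adjusted p = 0.00301). Without replicate 3 it was 7.87 ± 0.86. Gpnmb, a glycoprotein of lipid-laden macrophages, had 27216, 32331 and 1101 at 1.0 mg/kg/day, against 157, 883, 355 and 542 at 0.5 mg/kg/day (4.57 ± 0.83). Cd68, a macrophage lysosome protein, had 4141, 5158 and 249.5, against 48.9, 184, 126 and 159 (3.77 ± 0.74, adjusted p = 0.00949). The inhibitory Fc receptor Fcgr2b had 5183, 4428 and 365, against 61, 114, 87.9 and 173 (4.17 ± 0.72), and Coro1a, an actin regulator of leukocytes, rose by 3.77 ± 0.66. In all 5 the arrays of the doses were apart, and replicate 3 was the lowest of its group.

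The chemokines that draw monocytes were higher too. Ccl2 had 15822, 18069.9 and 316 at 1.0 mg/kg/day, against 124, 116, 20.8 and 225 at 0.5 mg/kg/day (5.39 ± 1.01, adjusted p = 0.00883). Its neighbour in function, Ccl7, had 8731, 8679 and 135, against 71.2, 54.6, 86.1 and 8.4 (5.26 ± 0.94). Both were far above the lower dose in replicates 1 and 2, and in replicate 3 they were above its highest array by less than 1 log2 unit. Of 24 tested chemokines and receptors 6 rose (25%, against 7.77% of all genes) and none fell (median 1.25). Among those that rose were the receptor Ccr1 (3.27 ± 0.85) and Cxcl14 (1.47 ± 0.36). Serpina3n, a protease inhibitor, and Lbp, the lipopolysaccharide-binding protein, both of the acute phase, differed between replicates 1 and 2. Serpina3n had 2173, 19054 and 362 at 1.0 mg/kg/day, against 5.4, 151, 82.8 and 90.5 at 0.5 mg/kg/day (5.10 ± 1.10), and Lbp had 1237, 4539 and 214, against 54.4, 149, 23 and 23.6 (4.16 ± 1.04).

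Of 28 complement and interferon genes 13 rose (46.4%, against 7.77% of all genes) and none fell (median 1.10). The receptors for complement fragments C5ar1 and C3ar1 had log2 differences of 2.21 ± 0.49 and 2.64 ± 0.64, and the immunoproteasome subunits Psmb8 and Psmb9 of 1.95 ± 0.46 and 1.90 ± 0.41. Psmb9 had 1861, 1741 and 520.3 at 1.0 mg/kg/day, against 213, 413, 346 and 302 at 0.5 mg/kg/day, and its arrays were apart. Of 9 neutrophil genes with a probe set, 4 passed the filter on signal, to which the arrays at 1.0 mg/kg/day contributed. Of these 4, S100a9 and S100a8, the subunits of calprotectin, rose. S100a9 had 4552, 6543 and 164, against 27, 35.5, 121 and 208 (4.33 ± 0.96, adjusted p = 0.0139), and S100a8 had 2082, 3075 and 57, against 36.7, 9.4, 123 and 146 (3.47 ± 1.05). In both genes replicate 3 lay inside the range at 0.5 mg/kg/day. Lcn2, a neutrophil granule protein, had 875, 718 and 3, against 74.6, 71.4, 29.4 and 261, the lowest value of all 7 arrays being that of replicate 3, and it did not pass (adjusted p = 0.521). None of 5 lymphocyte and 8 mast cell genes passed, with medians of 0.73 and 0.56.

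The summed signal of the 8 macrophage markers was 61968, 70757 and 8574 in replicates 1, 2 and 3 at 1.0 mg/kg/day, against 3823 to 6336 at 0.5 mg/kg/day and 3410 to 12365 in vehicle arrays. The 5 muscle fibre markers summed to 132754, 117647 and 252613 at 1.0 mg/kg/day, against 260086 to 312218 at 0.5 mg/kg/day. These sums moved in opposite directions in replicates 1 and 2, by a wide margin, and replicate 3 sat just outside the lower dose's range in both, within the vehicle range for macrophage markers. In such bulk samples, fewer cells of a type and less RNA per cell cannot be told apart, and the part of these cell types in the changes of other genes was not tested.

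**Figure D3:**
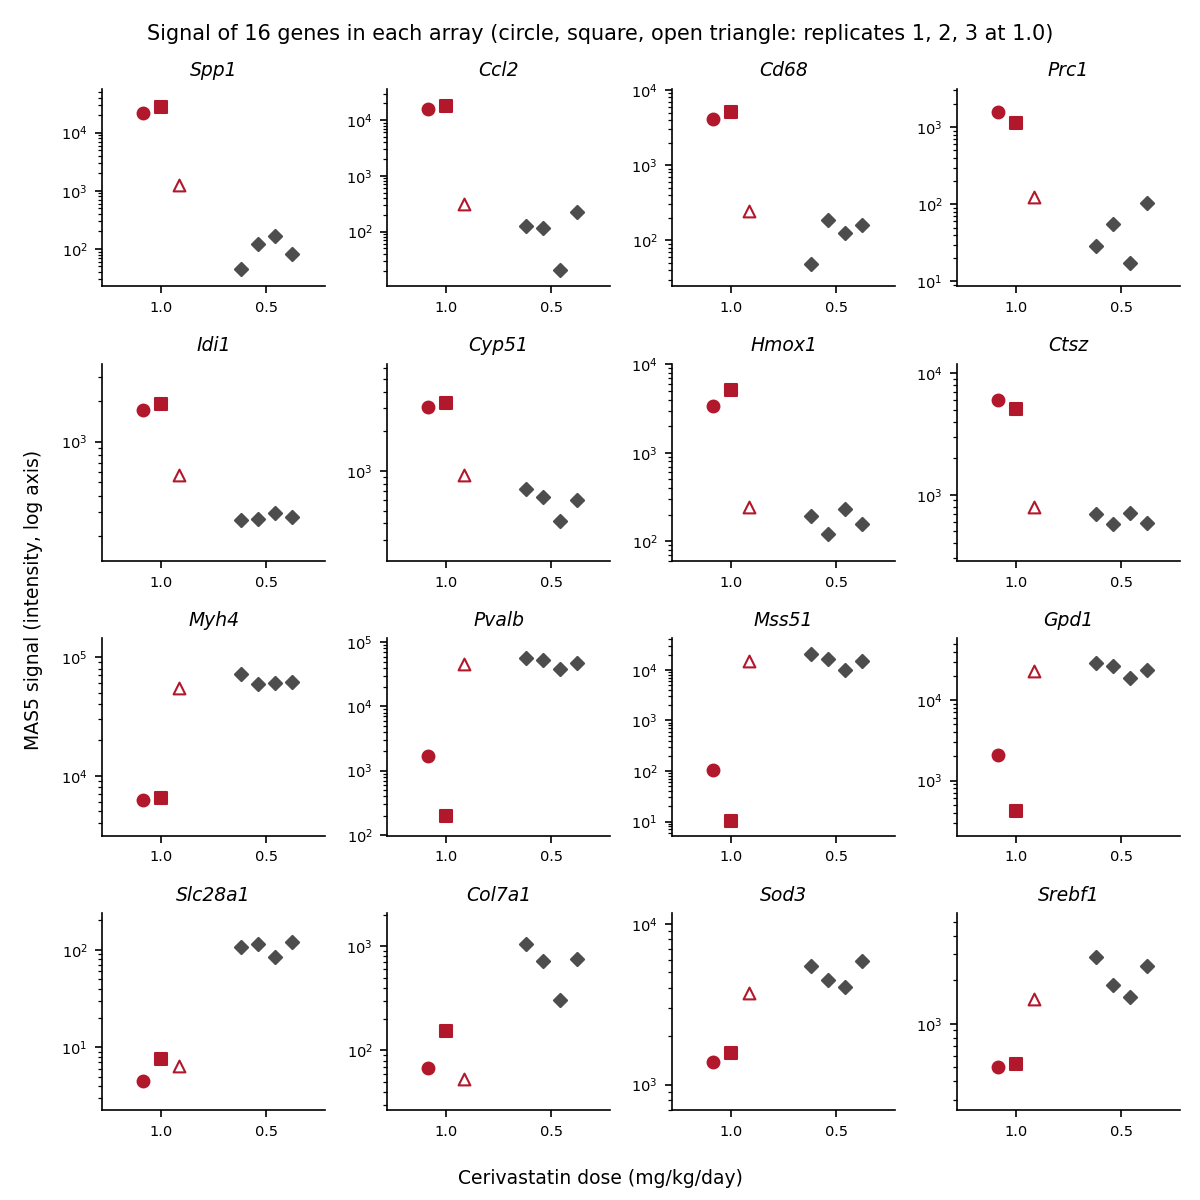
MAS5 signal (log axis) of 16 genes in each array, with the 3 arrays at 1.0 mg/kg/day on the left of each panel (circle, square and open triangle for replicates 1, 2 and 3) and the 4 at 0.5 mg/kg/day on the right (diamonds). In Ccl2, Cd68, Prc1, Myh4, Pvalb and Mss51 replicate 3 lies nearer to the lower dose than to replicates 1 and 2. Mss51, for instance, had signals of 104, 10.5 and 14686 in replicates 1, 2 and 3. In Spp1 replicate 3 lies between the lower dose and replicates 1 and 2, and in Slc28a1 and Col7a1 it lies with replicates 1 and 2.

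Many genes of cell division rose, almost wholly through replicates 1 and 2. Of 37 tested, 16 rose (43.2%, against 7.77% of all genes) and none fell (median 1.48). These 37, of 42 with a probe set, passed a filter on signal to which the arrays at 1.0 mg/kg/day contributed. A gene low at 0.5 mg/kg/day can thus be among them because the drug raised it. The median shift was 2.56, 2.02 and 0.12 in replicates 1, 2 and 3. Mki67, the marker of cycling cells, had 1612, 1151 and 52.7 at 1.0 mg/kg/day, against 29.6, 14, 67.7 and 29.4 at 0.5 mg/kg/day (3.50 ± 0.88, adjusted p = 0.0186). Prc1, which builds the midzone of the spindle, had 1563, 1148 and 124, against 29.2, 55.4, 17.3 and 104 (3.49 ± 0.68), and Mcm6, a subunit of the replicative helicase, had 1420.3, 969 and 141, against 8.1, 152, 68.1 and 94.9 (3.03 ± 0.64). Replicate 3 was inside the lower dose's range for Mki67 and Mcm6 and just above it for Prc1. Pcna, the replication clamp, was measured at high signal throughout, with 9064, 8339.7 and 2502, against 2328, 2208, 2386 and 2220.1 (1.33 ± 0.27). The topoisomerase Top2a had 653, 596 and 269, against 31.6, 18.4, 249.9 and 88.6 (2.65 ± 0.53). Without replicate 3, 33 of the 37 passed as higher, against 18.5% of all genes.

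The matrix list was shifted by a median of 0.92 over 43 tested genes, but 4 passed, all higher, a share near the 7.77% of all genes. Lum (lumican, a collagen-binding proteoglycan) had 16427, 19634 and 2656 at 1.0 mg/kg/day, against 2214, 3010.4, 1145 and 3065 at 0.5 mg/kg/day (2.10 ± 0.58). Vcan (versican) had 3973, 4868 and 358, against 366, 318, 237 and 309 (2.61 ± 0.55). The growth factor Tgfb1 rose by 2.07 ± 0.55 and the fibrillar collagen gene Col5a2 by 1.50 ± 0.46. Col1a1, the main collagen of scar, had 23939, 22276 and 31222, against 13888, 46827, 33353 and 22527, with groups that overlapped fully (-0.05 ± 0.81, adjusted p = 0.977). Without replicate 3, 21 matrix genes passed as higher, against 18.5% of all genes. Timp1, an inhibitor of matrix proteases, had 22813, 24502 and 888, against 176, 503, 481 and 485 (4.34 ± 0.80, adjusted p = 0.00883), one of the largest rises. The sheddases Adam15 and Adam19 rose by 1.82 ± 0.57 and 1.71 ± 0.40. The macrophage elastase Mmp12 had 832, 5267 and 118, against 151, 96.4, 106 and 90.4, and was close to the threshold without passing (2.78 ± 0.92, adjusted p = 0.054). Its signal in replicate 2 was several times that in replicate 1.

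Some stress genes rose, through replicates 1 and 2 above all. In the list of oxidative stress genes, 8 of 29 rose and 1 fell (median 0.67). These were 27.6% higher and 3.45% lower, against 7.77% and 3.5% of all genes. Hmox1, haem oxygenase, had 3411, 5088 and 242 at 1.0 mg/kg/day, against 192, 119.8, 232 and 159 at 0.5 mg/kg/day (3.16 ± 0.61, adjusted p = 0.00932). Metallothionein Mt2A had 32109, 35011 and 1495, against 1266, 1437, 1112 and 1381 (3.19 ± 0.64), and Akr1b8, an aldo-keto reductase, had 8629.5, 8368 and 468, against 284, 196, 390.2 and 73.6 (3.92 ± 0.90). In these genes replicates 1 and 2 stood far above the lower dose, and replicate 3 exceeded its highest array by less than 1 log2 unit. Thioredoxin, Txn1, rose by 0.93 ± 0.21. Sod3, the secreted superoxide dismutase, fell, with 1383, 1564 and 3725, against 5436, 4467, 4030.5 and 5841 (-1.28 ± 0.26, adjusted p = 0.0101).

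Of 37 genes of the unfolded protein response and amino acid stress, 11 rose (29.7%, against 7.77% of all genes) and none fell (median 0.73). The disulphide isomerases Pdia6 and Pdia3 rose by 1.38 ± 0.28 and 1.43 ± 0.33, the chaperone cofactor Sdf2l1 by 1.89 ± 0.43 and the degradation factor Derl2 by 0.86 ± 0.21. Pdia3 had 13086, 13181 and 4947 at 1.0 mg/kg/day, against 2919, 3304, 3789 and 4162 at 0.5 mg/kg/day, with all 3 arrays above the 4. None of 22 heat shock genes passed, with a median of -0.10 that quantile normalization turned to 0.036. In the p53 and apoptosis list 5 of 28 rose (17.9%) and 1 fell (3.57%, near the 3.5% of all genes), with a median of 0.74. Cdkn1a, the p21 inhibitor of the cell cycle, had 6936, 7848 and 1192, against 1374, 2024, 1233 and 1079 (1.53 ± 0.46, adjusted p = 0.0373), with replicate 3 inside the lower dose's range. Bid and Bcl2a1, of the BCL2 family, rose by 1.88 ± 0.43 and 2.16 ± 0.59, and Sesn1, a p53 target, fell (-0.89 ± 0.25).

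Immediate early genes, which respond within minutes to growth and injury signals, rose in 8 of 27 cases and fell in 2 (median 1.12). These were 29.6% higher and 7.41% lower, against 7.77% and 3.5% of all genes. Egr1 had 6965, 7958 and 1139.6 at 1.0 mg/kg/day, against 540.3, 689, 663 and 875 at 0.5 mg/kg/day (2.53 ± 0.64), and Egr2 had 965, 764 and 387, against 148, 72.4, 105 and 146 (2.41 ± 0.54). Myc had 2042, 2233 and 199, against 146, 187, 114 and 216 (2.51 ± 0.61), and Klf6 rose by 1.94 ± 0.48. All but Myc were apart between the doses. The falls were in Jun (-0.93 ± 0.29) and Nr4a1 (-1.51 ± 0.42), transcription factors of the same early response. Of 33 lysosome and autophagy genes 10 rose (30.3%) and 1 fell (3.03%), with a median of 0.68. The proteases Ctsz, Ctsl, Ctsb and Lgmn, which macrophages also hold in plenty, rose by 2.16 ± 0.39, 1.83 ± 0.37, 1.70 ± 0.38 and 2.32 ± 0.46. Ctsb had 31863, 31403 and 7755, against 4989, 6831, 6204 and 6429.6. In the proteasome list 1 of 33 passed, Psmd14 (0.74 ± 0.20), and the median was 0.14. That share, 3.03%, was under the 7.77% of all genes that rose.

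Some genes of fast muscle fibres fell, and here replicates 1 and 2 also differed from each other. Of 18 tested, 5 fell and none rose (median -1.24), against 3.5% of all genes, and the median shift was -1.25, -2.29 and -0.15 in replicates 1, 2 and 3. Myh4, the fastest myosin heavy chain, had 6249.9, 6458 and 54422 at 1.0 mg/kg/day, against 71741, 58726, 60601 and 61801 at 0.5 mg/kg/day. All 3 arrays lay below the 4, but replicate 3 missed the lowest of them by less than 1 log2 unit while the others were far lower (-2.28 ± 0.44, adjusted p = 0.00932). Pvalb, the calcium buffer parvalbumin of fast fibres, had 1712, 194 and 46209, against 57501, 53721, 37719.8 and 47223 (-4.25 ± 0.96, adjusted p = 0.0139). Actn3, the fast alpha-actinin, had 14874, 7640.4 and 71096, against 86081, 85076, 75476 and 70398 (-1.98 ± 0.46). In Pvalb and Actn3 the third replicate lay within the lower dose's range. The other myosins did not pass: Myh1 had 13207, 7724 and 18998, against 23218, 16052, 22874 and 16675 (-0.64 ± 0.43), and Myh2 had 29617, 10519.5 and 52688, against 41855, 39474, 66587 and 45777 (-0.90 ± 1.24). Myh7, the slow myosin, had 47044, 32888 and 50099, against 22429.7, 58412, 74039.6 and 53577 (-0.16 ± 2.09), and none of 15 slow fibre genes passed. The lowest array at 0.5 mg/kg/day for Myh7 was replicate 1, and the list of slow fibre genes spread from -1.30 to 0.67 among the 4 arrays of that dose. Without replicate 3, 16 of the 18 fast fibre genes passed as lower, against 13.2% of all genes.

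Genes of energy metabolism were lower in replicates 1 and 2. In the glycolysis and glycogen list 6 of 32 fell and 3 rose (median -1.18), with shifts of -1.37, -2.21 and 0.09 in replicates 1, 2 and 3. These were 18.75% lower and 9.375% higher, against 3.5% and 7.77% of all genes. Gpd1, the glycerol phosphate dehydrogenase, had 2068, 414 and 22663 at 1.0 mg/kg/day, against 29112, 26581, 18509.7 and 23344 at 0.5 mg/kg/day (-3.15 ± 0.76). Pfkfb1, which sets the level of a glycolytic activator, had 384, 149 and 5306, against 5487, 4709.5, 6102 and 4847 (-2.92 ± 0.77). Both overlapped only through replicate 3. Eno1 and Pgam1, the enolase and phosphoglycerate mutase forms found in many tissues, and the glucose transporter Slc2a1 rose. Eno1 had 10716, 12603 and 7296, against 4176, 4053, 4299 and 4004 (1.27 ± 0.22, adjusted p = 0.00873), and Pgam1 had 10202, 10239 and 2774, against 2266, 2369, 2396 and 3181 (1.38 ± 0.34). None of 65 oxidative phosphorylation and 27 TCA cycle genes passed, with medians of -0.80 and -0.85. Their median shifts were -0.85, -1.53 and -0.05, and -0.99, -1.66 and 0.00, in replicates 1, 2 and 3, and without replicate 3 the counts of lower genes were 44 and 18, against 13.2% of all genes. Among 37 fatty acid oxidation genes 2 rose and 1 fell (median -0.66), no larger a share than the 7.77% and 3.5% of all genes. The fall was in Ppargc1a, the coactivator of mitochondrial biogenesis, which had 99.7, 199.9 and 864, against 786, 988, 1566 and 1315 (-2.05 ± 0.59). The rises were in Ucp2 (1.89 ± 0.44) and Acsl5 (1.32 ± 0.39), which leukocytes also express.

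Of 30 genes of calcium handling and the triad, 4 fell and 1 rose (median -1.05). These were 13.3% lower and 3.33% higher, against 3.5% and 7.77% of all genes. Stim1, the sensor of calcium stores, had 1083, 814 and 2448 at 1.0 mg/kg/day, against 3471, 3134, 2909 and 3439.8 at 0.5 mg/kg/day (-1.31 ± 0.30, adjusted p = 0.0154), and the kinase Camk2g differed by -1.06 ± 0.30. Fkbp1a, which binds the calcium release channel, rose by 0.63 ± 0.19. Among genes of energy sensing and the sodium pump, 4 of 24 fell (16.7%) and 3 rose (12.5%), against the same 3.5% and 7.77%. Mss51, a muscle protein linked to mitochondrial respiration, had 104, 10.5 and 14686, against 20907, 16542, 9898 and 14661 (-5.46 ± 1.23, adjusted p = 0.0139), the largest fall of the genes past the threshold. Replicates 1 and 2 had almost no signal and replicate 3 was in the middle of the lower dose's range. The sodium pump subunit Atp1b2 had 949, 526 and 7028, against 15242, 11385, 8679 and 13395 (-2.95 ± 0.63), while its relatives Atp1b3 and Fxyd5 rose by 1.04 ± 0.29 and 2.26 ± 0.63. Of 18 clock genes, Hlf and Rora fell (-2.60 ± 0.61 and -1.23 ± 0.39), 11.1% against 3.5% of all genes.

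The shares of atrophy and regeneration genes that passed were near those of all genes (7.77% higher and 3.5% lower). Of 28 atrophy genes tested, 2 were called higher and 1 lower, with a median of -0.08 that became 0.03 without replicate 3. The ubiquitin ligases Fbxo32 and Trim63, standard markers of muscle wasting, had 770.4, 686 and 360.1 and 8672, 15638 and 4328 at 1.0 mg/kg/day, against 585, 676, 1144 and 291 and 4124, 5138, 7945 and 4932 at 0.5 mg/kg/day, and did not pass (-0.07 ± 0.56 and 0.64 ± 0.61). Fbxo30 and Cblb rose by 0.95 ± 0.25 and 1.10 ± 0.32, and Foxo4, a transcription factor of the wasting programme, fell (-1.19 ± 0.35). In the regeneration list 2 of 23 rose: Runx1 had 5391, 4814 and 749, against 550.4, 499.7, 446 and 628 (2.33 ± 0.44, adjusted p = 0.00883), and vimentin, Vim, had 42697, 36434 and 19561, against 6578, 12145, 9042 and 8208 (1.83 ± 0.46). Vim was higher in all 3 arrays, although replicate 3 lay within the vehicle arrays (6658 to 20335). Myogenin, Myog, had 4805, 8332 and 1494, against 1723, 1932, 1798 and 1440.4, and did not pass (1.19 ± 0.52, adjusted p = 0.135). None of 14 receptor and synapse genes of denervation passed. Ankrd1, a stretch-responsive ankyrin repeat protein, had 12548, 15941 and 1073, against 375, 299.5, 510.4 and 1178 (3.52 ± 0.85, adjusted p = 0.0172). It was 1 of 21 in its list to rise, a share (4.76%) under the 7.77% of all genes.

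**Figure D4:**
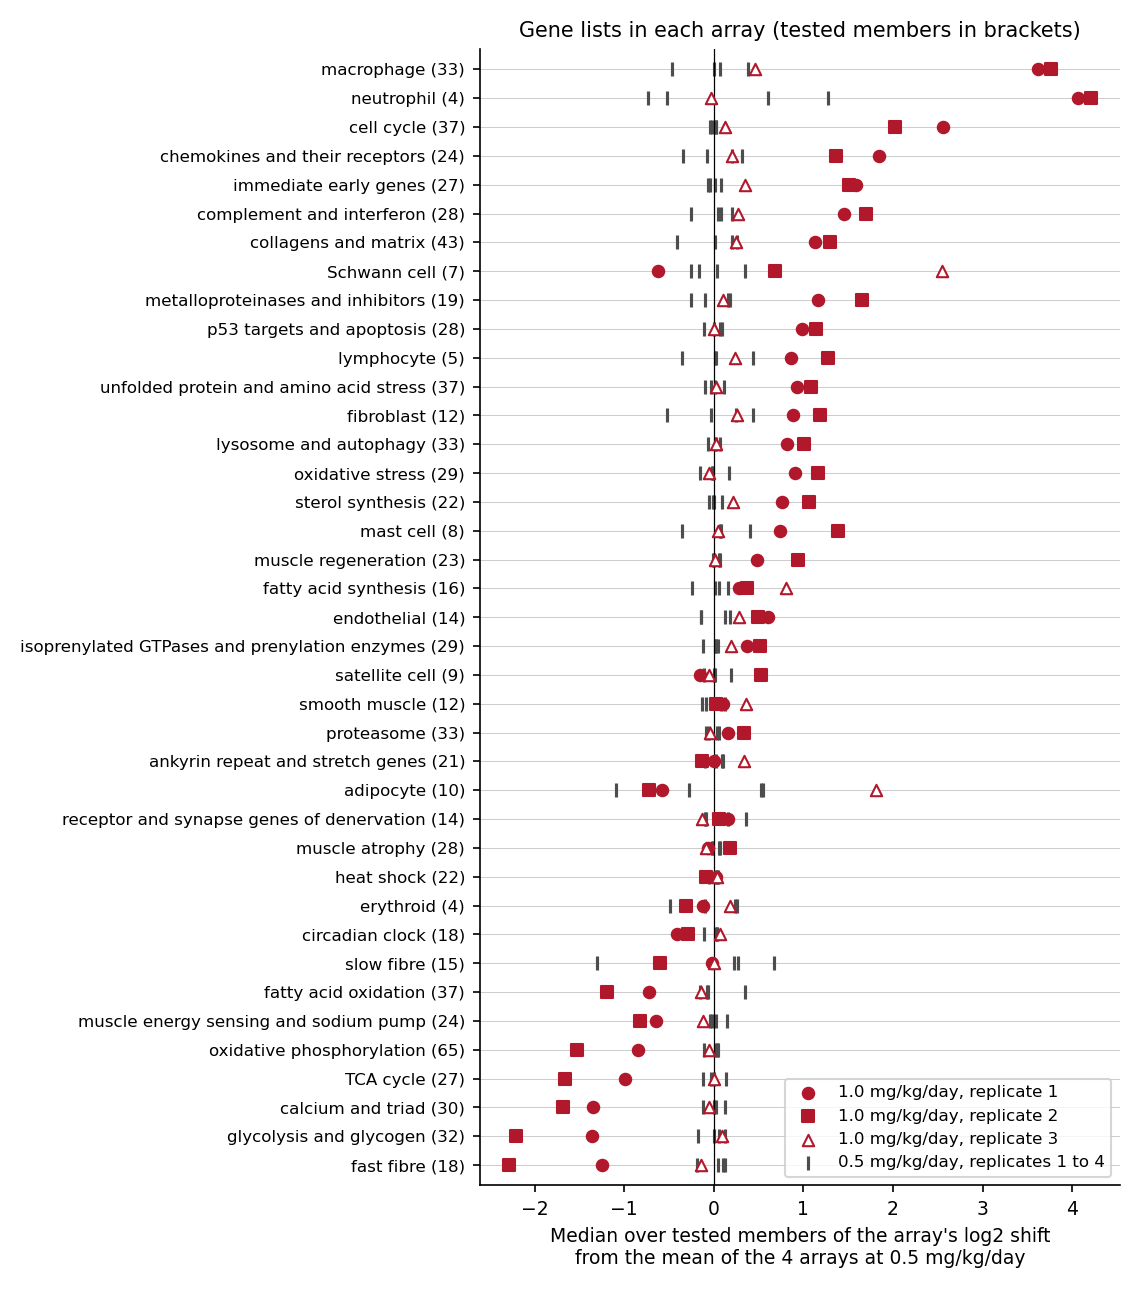
Median log2 shift of the tested members of each of 39 gene lists (x axis) from the mean of the 4 arrays at 0.5 mg/kg/day, for replicates 1, 2 and 3 at 1.0 mg/kg/day (filled circle, filled square, open triangle) and for the 4 arrays at 0.5 mg/kg/day (grey ticks). The number of tested members stands in brackets. Macrophage genes reached 3.62 and 3.76 in replicates 1 and 2 and 0.46 in replicate 3, which instead stood out in the Schwann cell (2.55) and adipocyte (1.81) lists.

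The remaining large rises and falls had varied roles. Tubb6, a beta-tubulin of injured muscle, had 11388, 17608 and 522 at 1.0 mg/kg/day, against 233, 209, 369 and 232 at 0.5 mg/kg/day (4.16 ± 0.71, adjusted p = 0.00873), and the small GTPase Rrad had 19680.3, 14836 and 1253, against 282, 639, 407 and 818 (3.82 ± 0.83). The chitinase-like protein Chi3l1 had 3880.5, 4794 and 160.3, against 138, 46.2, 219 and 122 (3.52 ± 0.73), with replicate 3 inside the range of the lower dose. G0s2, an inhibitor of fat breakdown, had 313, 35.3 and 4068, against 4012, 4377, 6102 and 7414 (-3.74 ± 0.83). Among falls, C8h3orf18 had 59.6, 50.3 and 1427, against 2434, 2248, 1429.8 and 2638 (-3.52 ± 0.83), and the sialidase Neu2 had 169.9, 25.9 and 928, against 2135, 1850.3, 1701 and 1628 (-3.29 ± 0.76). The potassium channel subunit Lrrc38 had 77.4, 6.5 and 429, against 850.2, 659, 578 and 1248 (-3.16 ± 0.74). Fn3k, Wnk2 and Ankrd9 had log2 differences of -2.46 ± 0.64, -2.20 ± 0.69 and -2.19 ± 0.67. In all of these replicate 3 was the array nearest to the lower dose.

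In a minority of genes replicate 3 shifted at least 50% as far as replicates 1 and 2 on average, a rule that sets no upper bound and does not ask that replicates 1 and 2 be alike. It held for 77 of the 908 genes that rose (8.48%) and 52 of the 409 that fell (12.7%). Slc28a1, a nucleoside transporter, had 4.5, 7.5 and 6.5 at 1.0 mg/kg/day, against 108, 114, 83.6 and 119 at 0.5 mg/kg/day. Col7a1, the collagen of anchoring fibrils, had 67.6, 153 and 53.2, against 1037, 716, 302 and 748 (-2.78 ± 0.62, adjusted p = 0.0139). Gucy2g, a guanylate cyclase, had 14.6, 40.3 and 19.9, against 174, 100.3, 276 and 206 (-2.41 ± 0.55), and Col2a1, the cartilage collagen, had 4.2, 2.9 and 6.9, against 56.2, 102, 164 and 82.7. In Slc28a1 and Col2a1 all 3 signals at 1.0 mg/kg/day lay below the offset of 12.4, so neither the size of the fall nor its evenness can be read from them. All 4 genes were among the 12 largest falls without overlap, and in each the 3 arrays stood together below the 4. Apart from Col7a1 their signals were low, at or under 276 on all 7 arrays. Vehicle arrays had 226, 12.5, 125 and 99.8 for Slc28a1 and 23.2, 33.3, 17.9 and 227 for Col2a1. The values at 0.5 mg/kg/day lay within these ranges. For Col2a1 this held through 1 vehicle array only, and the other vehicle arrays lay below all 4 at 0.5 mg/kg/day. Among rises, Casp4, an inflammatory caspase, had 314, 352 and 216, against 173, 16.5, 13.8 and 83.9 (2.31 ± 0.56), and Tspan17, a tetraspanin singled out after its values were seen, had 174, 504 and 441, against 33.3, 54.1, 39.4 and 48.5 (2.66 ± 0.71).

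Replicate 3 was the highest of the 7 arrays in several myelin and fat cell genes. It lay at least 1 log2 unit above all 4 arrays at 0.5 mg/kg/day in 75 genes, of which replicates 1 and 2 were above too in 36 and 18 were past the threshold as higher, and at least 1 unit below them in 80, of which replicates 1 and 2 were below too in 34 and 10 were past it as lower. The genes in this paragraph that are not in a marker list were chosen after their values were seen. Mbp, the myelin basic protein of Schwann cells, had 309, 1552 and 11007 at 1.0 mg/kg/day, against 695, 426, 534 and 339 at 0.5 mg/kg/day. Pmp22, a peripheral myelin protein, had 7101, 9528 and 26395, against 3687, 3508, 3519 and 3284, and periaxin, Prx, had 201, 332 and 2278, against 402, 235, 290.1 and 229.9. Replicate 3 was the highest of the 7 arrays in all 3 genes, replicate 1 lay below the whole lower dose in Mbp and Prx, and none of them passed (adjusted p = 0.247, 0.0575 and 0.391). Apod, a lipid carrier abundant in nerve sheaths, had 610, 1105 and 4918, against 376, 156, 193 and 206. In Pmp22 and Apod all 3 arrays at 1.0 mg/kg/day lay above the 4. Adiponectin, Adipoq, had 67.1, 150.4 and 4526, against 35.1, 722, 417 and 193, and adipsin, Cfd, had 2348, 5166 and 14364, against 630.5, 3269, 2688 and 1641. For these fat cell genes, 1 vehicle array was also high, with 1829 for Adipoq and 8192 for Cfd.

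The summed signal of the 2 Schwann cell markers measured, of 4 fixed, was 7410, 11081 and 37402 in replicates 1, 2 and 3 at 1.0 mg/kg/day, against 3623 to 4382 at 0.5 mg/kg/day and 3007 to 5999 in vehicle arrays. The 4 adipocyte markers, of which Lep was not above the filter, summed to 153, 301 and 6697, against 279 to 1917 and, in vehicle arrays, 215 to 3208. Both sums were highest in replicate 3. The Schwann cell sum was above the lower dose in replicates 1 and 2 too, but Pmp22 made up most of it. The Schwann cell list had median shifts of -0.62, 0.68 and 2.55 in replicates 1, 2 and 3. In replicate 1, 5 of its 7 tested members lay below all 4 arrays at 0.5 mg/kg/day and 2 above. Over all genes these shares were 33.6% and 37.9%. The 3 endothelial markers ranged from 3701 to 5130 at 1.0 mg/kg/day, against 3547 to 4907 at 0.5 mg/kg/day, and the 2 erythroid markers from 8178 to 13737, against 6303 to 10834, the highest of each being replicate 3. Without replicate 3 the median of the Schwann cell list turned from 0.91 to -0.12 and that of the adipocyte list from 0.09 to -0.93. The part of these cell types in the difference between replicate 3 and the other arrays was not tested.

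**Figure D5:**
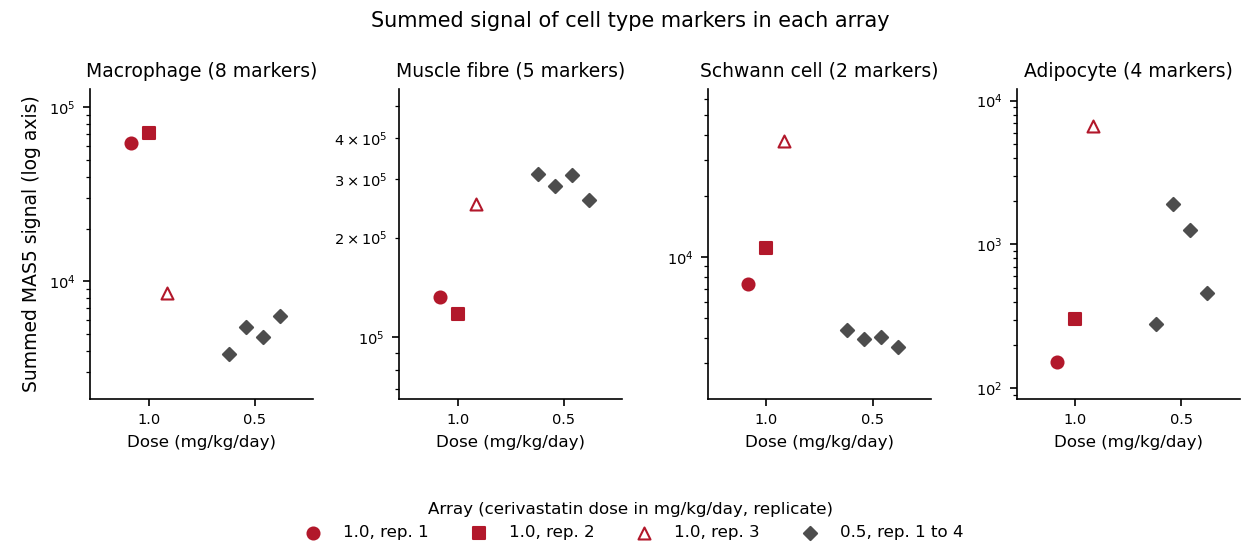
Summed MAS5 signal (log axis) of cell type markers in the 3 arrays at 1.0 mg/kg/day (red) and the 4 at 0.5 mg/kg/day (grey diamonds). Replicates 1 and 2 at 1.0 mg/kg/day (filled circle and square) have the highest macrophage and the lowest muscle fibre sums, and replicate 3 (open triangle) has the highest Schwann cell (37402) and adipocyte (6697) sums.

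At 0.5 mg/kg/day no probe set (0.0%) passed against the 4 unexercised vehicle arrays in limma, with 593 at an unadjusted p under 0.05 (2.73%) and a lowest adjusted p of 0.226. Sterol synthesis genes had a median log2 difference of -0.03 in that comparison and macrophage genes of -0.07. The comparison shares the arrays at 0.5 mg/kg/day with the step to 1.0 mg/kg/day. Idi1 had 353, 354, 338 and 162 and Myh4 52705, 57455, 74564 and 52135 in vehicle arrays, which spanned the signals at 0.5 mg/kg/day in both genes.

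The step between the doses was also set against the same step in rats that ran. In exercised animals 8630 probe sets passed between 1.0 and 0.5 mg/kg/day. The difference between the unexercised and the exercised step passed for no probe set (0.0%) in limma, with 1388 at an unadjusted p under 0.05 and a lowest adjusted p of 0.723, so an effect of exercise on the step was not shown by this fit. With array weights 2555 probe sets passed. For Spp1 the step was 6.44 ± 0.91 in unexercised and 8.12 ± 0.91 in exercised rats, a difference of -1.68 ± 1.28 (adjusted p = 0.735). For Myh4 it was -2.28 ± 0.44 and -1.75 ± 0.44 (-0.52 ± 0.62), and for Idi1 2.10 ± 0.42 and 2.69 ± 0.42 (-0.60 ± 0.60).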

How the data were processed

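Biotin-labelled cRNA from 30 gastrocnemius and 15 soleus arrays was measured on Affymetrix rat arrays. The deposited values are linear intensity, 1 signal per probe set, from the MAS5 algorithm according to the labels, per the submitters' processing notes, which name no version or setting. The trimmed mean of every array was 600.2 to 600.3, so arrays were scaled to a common level before deposit. Arrays were grouped by title. Signals were taken as log2(signal + 12.4), the offset being the 10th percentile, and kept where the mean over 45 arrays reached the 30th percentile, which left 21729 of 31042 probe sets after 57 controls were removed. Limma 3.58.1 in R 4.3.3 was fitted to the 30 gastrocnemius arrays with 1 mean per group and a mean-dependent prior, and p-values were adjusted over all probe sets by the Benjamini-Hochberg method. Of the probe sets, 20826 had 1 gene symbol, 436 several and 9780 none in the platform annotation, and each gene was read from the brightest of its tested probe sets, by mean over the arrays. The procedure was tested on simulated data with independent normal noise of the same spread in every group. That setting holds no array that departs from its group as replicate 3 does, so it does not cover this case. Alternatives covered offset, filter, normalization, the arrays in the fit, array weights, a replicate block and each array left out.

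Genes were named by rule: the 12 largest rises and falls without overlap, the 6 largest with overlap, the 4 members of each list with the smallest adjusted p, the 6 with the smallest adjusted p in the exercise difference, and a fixed set of statin and muscle genes. Of these only some are described. Jun, Nr4a1, Slc2a1, Ncf1, Tspan17 and the genes described for replicate 3 were named after their values were seen. The gene lists, members and tests were chosen with earlier results of these data known, partly from the lists of that earlier work. The number of arrays limits the precision. Soleus arrays entered only the filter and the offset.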

Additional observations from a re-analysis of the deposited data

Results flagged for a closer look

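In 4 of the 128 genes tested in this way, 1 of the 4 arrays at 0.5 mg/kg/day stood far from the other 3 by Dixon's criterion. Chance alone marks about 1 in 20 groups, more than the share seen here. Timp1 was low in replicate 1 (175.6, against 481 to 503 in the others), as was Tgfb1 (144.4, against 271 to 297) and Scd (101.2, against 304 to 321). Pgam1 was high in replicate 4 (3181, against 2266 to 2396).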

How the results depend on the processing

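The count of 2028 probe sets (1317 genes) between 1.0 and 0.5 mg/kg/day depended on the weights of the arrays and on which arrays entered the fit. It was 0 (0 genes) on the 7 arrays or the 15 unexercised arrays alone and 3298 (2118 genes) on all 45 arrays. A further alternative, chosen after seeing the data, left out the array whose actin ratio was under 0.2. That array was unexercised replicate 3 at 0.1 mg/kg/day, and without it the count was 4143 (2681 genes). With array weights, which gave replicates 1, 2 and 3 at 1.0 mg/kg/day weights of 6.77, 0.958 and 0.193, it was 11598 (6882 genes). Leaving out 1 array at a time gave 0 to 5892 probe sets (0 to 3702 genes). Other offsets, filters and normalizations kept it between 1618 and 2258. Against vehicle, 0.5 mg/kg/day gave 0 to 1 probe sets with 1 array left out, and the difference between the unexercised and exercised steps passed for 2555 with array weights and 0 otherwise.

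Samples of one number did not deviate together (correlations of -0.06, 0.07 and -0.05), so the number pairs no samples. With a replicate block 1529 probe sets and 993 genes passed, and 97 of the 110 called genes described still did. None of these 110 changed sign under any alternative run.

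Signs were checked for the genes described and the list medians only, not for the other genes that passed. The cause of the sign changes that follow was not tested. Without replicate 3 at 1.0 mg/kg/day the Schwann cell median was -0.12, against 0.91 with it, and the adipocyte median -0.93, against 0.09. The heat shock median was 0.036 with quantile normalization and 0.012 with array weights, and the satellite cell median -0.051 with weights. With weights Adipoq was -1.45, Fbxo32 0.39, Mbp -0.14, Prx -0.24 and Scd -0.95. With quantile normalization Col1a1 was 0.20 and Myh7 0.24, and with the replicate block Col1a1 was 0.036. With 1 array left out, the ranges were -0.33 to 0.046 for denervation genes, -0.33 to 0.13 for erythroid genes, -1.05 to 1.87 for Adipoq, -0.36 to 0.22 for Col1a1, -0.41 to 0.26 for Fbxo32, -0.53 to 0.048 for Myh7, -0.30 to 0.59 for Ncf1, -0.12 to 1.59 for Prx and -0.80 to 1.11 for Scd.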
